A study of Mus musculus with 22 samples.

Results

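Broad H3K9me3 domains were examined in mouse 16.7 ES cells, an embryonic stem cell line of the CAST/Ei x 129/Sv/Jae background, 12 h after nucleofection of LNA gapmers, which are antisense oligos that direct cleavage of a matching RNA. One condition received a scramble gapmer (scramble KD) and the other a gapmer against TERRA, the telomeric repeat-containing RNA (TERRA KD), with 2 libraries per condition for each of 4 assays: H3K9me3, ATRX and G4 ChIP-seq and ATAC-seq. The study calls the 2 ATRX and the 2 G4 libraries of a condition biological replicates, but the labels do not say whether libraries came from separate cultures, so p-values measure only the spread between them, which may be technical. Where 4 values are given for an assay, they stand in the order scramble KD replicate 1, scramble KD replicate 2, TERRA KD replicate 1 and TERRA KD replicate 2. A domain was a peak of the H3K9me3 scramble KD replicate 1 list with an end at least 8000 bases past its start that shared at least 1 base with a peak of scramble KD replicate 2. Of the 26414 peaks in that list, 1566 were long enough and 1560 were members. The other 6 had no replicate 2 peak. The members made up 5.91% of the peaks and 19.8% of the bases under them, 16.9 Mb in all. Both scramble KD H3K9me3 lists therefore chose the domains, and H3K9me3 values over them are given as a description, without a test.

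H3K9me3 is the mark of constitutive heterochromatin. It is placed by enzymes such as SETDB1 and SUV39H1 and read by HP1 proteins, and in ES cells it covers retrotransposons, pericentromeric repeats and the zinc finger genes whose products direct SETDB1 to such repeats through the corepressor TRIM28. ATRX is a chromatin remodeler that binds H3K9me3 and, with DAXX, deposits histone H3.3 in repeats and telomeres. A G-quadruplex (G4) is a four-stranded fold of guanine-rich DNA, caught here with the antibody BG4, and ATAC-seq marks DNA that the transposase Tn5 can reach.

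Most domains held 1 short sequence that is rare in the genome. The 24-base words of the 1553 domains on assembled chromosomes were taken from the RefSeq copy of GRCm38, on both strands. Only the words held by the most domains were counted over the genome, and 5998 remained as candidates after the filter below. Words shared by fewer domains were not searched. From the candidates, words were picked in turn by how many domains without an earlier pick they added. Only words at least 10 times as frequent among domains as among 10-kb stretches of the genome were considered, so the contrast between domains and stretches was part of the choice and is not a test. The 4 words that resulted are shown because together they marked 935 of the 1553 domains (60.2%). All letters are in lower case, since no part of a word is singled out.
word 1: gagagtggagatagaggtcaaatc
word 2: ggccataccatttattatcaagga
word 3: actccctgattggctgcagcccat
word 4: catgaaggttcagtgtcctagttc

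Word 1 lay in 810 domains (52.2%), in 10.4% of the 14424 shorter H3K9me3 peaks that overlapped replicate 2, and in 1.08% of the 264759 stretches of 10 kb, each at least 50% sequenced, into which the genome was divided. The shorter peaks have less room for a word, with a median of 2908 bases against 10013 for the domains. Word 2 lay in 656 domains (42.2%) and 0.754% of the stretches, word 3 in 746 (48.0%) and 1.89%, and word 4 in 371 (23.9%) and 0.761%. The words were largely found in the same domains, as words 2, 3 and 4 added 68, 35 and 22 domains to the 810 of word 1. In the 29173-base domain chr10:130544638-130573810 (GRCm38), words 3, 1 and 2 followed each other on the plus strand at chr10:130560326-130560349, chr10:130560539-130560562 and chr10:130561736-130561759. In all, 2869 copies of word 1 were found in the genome. Of these, 832 lay in the 16.9 Mb of domains, 1513 in the 48.1 Mb of shorter peaks and 18.3% in neither. The soft-masked share, which is the sequence that the RefSeq file marks as repeat, was 67.5% of domain bases, 68.2% of the shorter peaks and 36.4% of the sequenced genome. No repeat annotation was used here, so the words were not assigned to a repeat family.

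The scramble KD replicate 1 H3K9me3 peaks covered 85.6% of the copies of word 1 in the genome and the TERRA KD replicate 1 peaks 91.1%. The replicate 2 lists covered 41.9% in scramble KD and 66.8% in TERRA KD. Copies of one repeat can take reads from each other, and the part of that in these shares was not tested. The reference sequence also shows where a copy lies in C57BL/6J and not in the CAST/Ei and 129/Sv/Jae chromosomes of these cells.

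The GC content of the domains was 44.3% against 41.7% for the sequenced genome, and CpG dinucleotides reached 0.320 of the number expected from the C and G content against 0.190. Motifs with the potential to form a G4, written as 4 runs of at least 3 G with 1 to 7 bases between them, searched on both strands without overlap on a strand, were found at 135 per Mb in domains and 234 per Mb in the genome. The shorter H3K9me3 peaks were near the domains in each, at 43.5% GC, 0.281 for CpG and 132 motifs per Mb. Of 362 tracts in the genome with at least 4 copies of TTAGGG in a row, on either strand, 1 lay in a domain (0.0593 per Mb against 0.137 per Mb of the genome, a difference that a count of 1 cannot show) and 22 in the shorter H3K9me3 peaks (0.457 per Mb). The tract in a domain had 5 copies at chr6:65067199-65067228 inside Smarcad1, a gene for a chromatin remodeler. That domain, chr6:65064927-65074113, had no ATRX peak in scramble KD and 1 in TERRA KD, in replicate 1.

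The domains ran from 8001 to 37716 bases, with a median of 10013 and quartiles at 8897 and 11815. Only 32 were at least 20 kb long. They held 182 to 3043 tags each (median 474), and their fold enrichment over background ran from 11.4 to 174, with a median of 41.1 against 26.9 for the shorter peaks. Just outside the rule were peaks spanning 7997, 7998 and 7999 bases, with 311, 478 and 407 tags, and just inside were peaks spanning 8000, 8002 and 8002 bases, with 292, 262 and 225 tags. Lengths ran on without a gap at the boundary.

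Domains were found on all autosomes and on X. The line is XX and has no Y chromosome, although 117 peaks of the scramble KD replicate 1 list were placed on Y, none of them a domain. The mean density was 0.587 per sequenced Mb, counted with the 88.1 Mb of Y in the reference, as are the genome shares given here. Chromosomes 17 (0.861 per Mb, 79 domains) and 6 (0.854 per Mb) were the densest, and chromosomes 19 (0.326 per Mb, 19 domains) and 5 (0.392 per Mb, 58 domains) the sparsest. A further 7 domains lay on unlocalised contigs, for which no gene or sequence was read here. Chromosomes 6 and 8 stood apart in several lists. Chromosome 6, with 5.53% of the sequenced genome, held 8.05% of the domains, 7.48% and 10.1% of the scramble KD H3K9me3 peaks and 9.29% to 17.5% of the ATRX peaks of a library. Chromosome 8, with 4.74% of the genome, held 4.83% of the domains, 6.20% and 7.79% of those H3K9me3 peaks and 8.35% to 15.6% of the ATRX peaks. The part of this excess in the results was not tested beyond leaving both chromosomes out, after which the 10 comparisons of ATRX, G4 and ATAC between conditions or regions had the same direction, with the mean ATRX log2 ratio to the rest of the genome given below at 4.05.

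**Figure D1:**
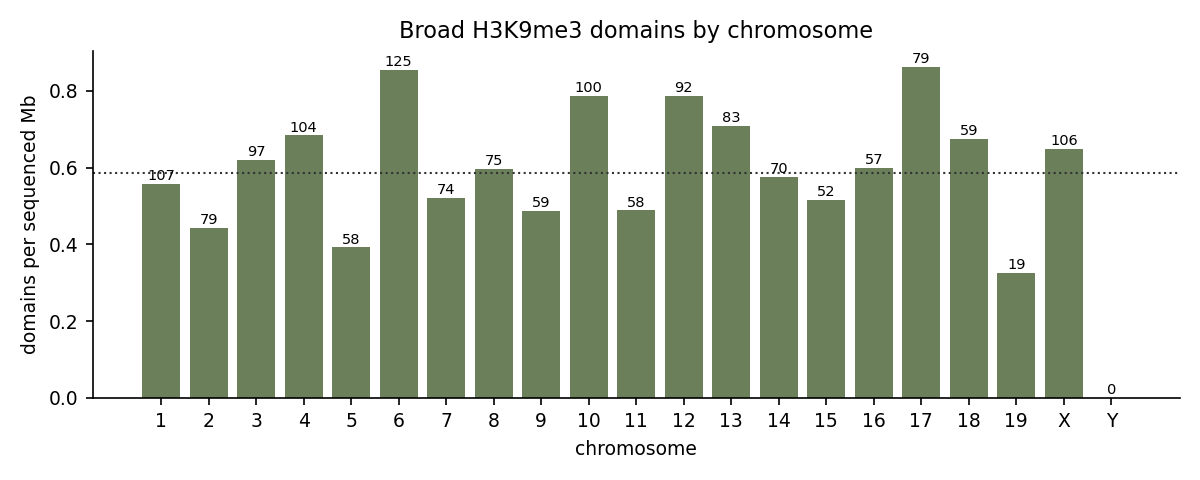
Number of broad H3K9me3 domains per sequenced Mb on each chromosome (bars from 0), with the number of domains above each bar and the mean of 0.587 per Mb as a dotted line. Chromosomes 17 and 6 reach 0.861 and 0.854, and Y, which this XX line lacks, has none.

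The domains were clustered in places. A neighbour lay within 100 kb for 423 of the 1560 domains (27.1%), and 351 had none within 1 Mb on their chromosome. The 1-Mb stretch with the most domain sequence was chr12:20000001-21000000, with 10 domains over 15.2% of it and no curated gene in them. It was followed by chr2:177000001-178000000 (8 domains, 13.4%), chr13:62000001-63000000 (10 domains, 12.6%) and chr4:147000001-148000000 (8 domains, 11.1%), and the domains of these 3 stretches overlapped 2, 2 and 5 Zfp genes (Zfp970 and Zfp972, Zfp808 and Zfp934, and Zfp534, Zfp978, Zfp982, Zfp988 and Zfp991). With each chromosome cut into 10 equal parts from its centromeric end, where the first part includes a gap, the first 2 parts held 230 and 253 domains, the last 190, and the 7 between them 100 to 160. The last Mb of the 20 chromosomes with domains held 13, a mean of 0.65 per chromosome.

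Most domains were outside genes. Of the 1553 on assembled chromosomes, 417 overlapped a curated RefSeq gene, 26.9% (95% exact binomial interval 24.7% to 29.1%), while 46.9% of the 10-kb stretches of the genome did. Gene bodies made up 21.9% of domain bases against 40.9% of the genome, and exons 1.51% against 2.73%. Transcription starts (TSS) were rarer still, in 51 domains (3.28%) against 8.56% of stretches. With predicted RefSeq genes included, 41.9% of the domains overlapped a gene, a set added after the data were seen.

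Zinc finger genes met domains more often than genes in general, and mostly not at their starts, which held for all genes too. Of 403 genes named Zfp and a number, most of which code for DNA-binding proteins of the C2H2 type, 36 overlapped a domain (8.93%), while the share over all 26182 curated genes was 1.56%. Only 2 had their TSS in one, Zfp629 and Zfp872, where all genes gave 0.206%, and 20 had their transcript's 3′ end in one. Of the 409 curated genes that overlapped a domain, 355 had no TSS in one and 98 had their 3′ end in one. The shorter H3K9me3 peaks overlapped 79 of the 403 Zfp genes and 2257 of all 26182. The longest domains with a Zfp gene, chosen after their values were seen, were those of Zfp808 (37716 bases), Zfp936 (23819), Zfp629 (21394), Zfp992 (21214), Zfp978 (20592 and 18345, 2 domains), Zfp982 (17000), Zfp980 (15890) and Zfp930 (15620). The TSS of Zfp808 at chr13:62129890 lay upstream of its domain, which began at position 62150472 and ran past the gene's 3′ end at 62173938. Of the 43 domains with a Zfp gene, 12 were on chromosome 4 and 9 on chromosome 7. Genes of such clusters are close copies of each other, so peaks on them are uncertain where reads fit more than 1 copy.

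Clustered protocadherins, cell adhesion proteins of neurons, gave the next count, but from 1 place: 7 of 58 genes (Pcdha1 to Pcdha7) overlapped the 11881-base domain chr18:36978212-36990092, because their long transcripts all run through it, and none had its TSS there. That domain overlapped 10 protein-coding genes, the most of any, with 3 Gm gene models among them. Olfactory receptor genes, mostly silent outside the nose, were at 4 of 1125 (0.356%), with the TSS of Olfr212, Olfr1388 and Olfr1055 in domains. Vomeronasal receptors were at 1 of 357, Vmn2r35. Among 32 imprinted genes 1 had a domain in its body (3.13%), Kcnq1ot1, the antisense RNA of the Kcnq1 region. A list of 18 genes, mostly germline genes silenced in ES cells but with Zfp42 among them, also gave 1 (5.56%), Mov10l1, a helicase of the piRNA pathway. None of 105 ribosomal protein genes, 17 genes of the two-cell stage, 16 pluripotency genes or 22 genes of H3K9 methylation and ATRX overlapped a domain. At the share of 1.56% over all genes, the imprinted, germline, ribosomal, two-cell, pluripotency and H3K9 methylation lists would hold few or no such genes. Their counts therefore do not set them apart. The olfactory and vomeronasal shares, 0.356% and 0.280%, lay below 1.56%, and this was not tested. By stem of the symbol, the largest number of the 54 TSS in domains belonged to Gm genes (13 of 2323), which are gene models without a proper name, then to Olfr and Mir (3 each) and Zfp and A (2 each), and the other families had at most 1. The stem A comes from clone names of the Rik type.

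**Figure D2:**
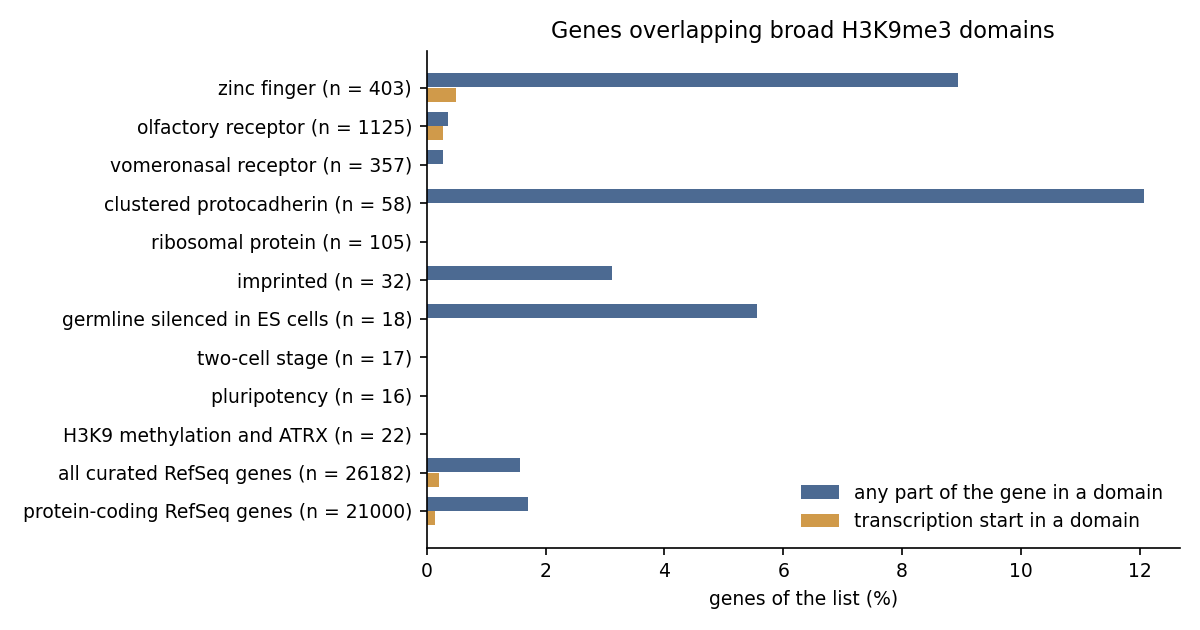
Share of the genes of each list with any part (blue) or the transcription start (ochre) in a broad H3K9me3 domain, with the number of annotated genes in brackets. Zinc finger genes reach 8.93% by any part and 0.496% by the start, and the protocadherin bar of 12.1% comes from a single domain.

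As a check of the cell type, ATAC peaks within 1000 bases of the TSS were sought for 6 pluripotency genes. Pou5f1, Sox2, Klf4 and Tfcp2l1 had one in all 4 libraries, Nanog in 3 and Esrrb in 2, and none of the 6 had an H3K9me3 peak there in any library.

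The H3K9me3 lists of the 2 replicates differed in form before any comparison of conditions. Replicate 1 peaks had a median length of 2404 bases in scramble KD and 3120 in TERRA KD, from 12090614 and 13898785 ChIP tags. Replicate 2 peaks had medians of 491 and 515 bases, from 5942692 and 5435286 ChIP tags. The inputs differed too, with 3366921 and 3374834 tags for replicate 1 and 19735093 and 28622103 for replicate 2. A domain therefore was 1 peak in scramble KD replicate 1 and a median of 5 peaks in scramble KD replicate 2, which covered 41.6% of domain bases. H3K9me3 of the 2 conditions is therefore set side by side within a replicate number.

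In TERRA KD nearly all domains had H3K9me3 peaks. TERRA KD replicate 1 peaks covered 92.1% of domain bases and replicate 2 peaks 54.0%, the latter 12.4 percentage points above scramble KD replicate 2. Of the 1560 domains, 1496 (95.9%) had a peak in TERRA KD replicate 1 and all 1560 in replicate 2, where 12.1% and 17.2% of the 10-kb stretches had one (11.2% and 18.6% in scramble KD). In TERRA KD replicate 1, 1379 domains were touched by a single peak, 117 by 2 or more, and 744 lay wholly inside 1 peak. Coverage in replicate 2 was higher in TERRA KD in 1290 domains, lower in 269 and equal in 1. Outside the domains it was higher in TERRA KD as well. Replicate 2 peaks covered 34.7% of the bases of the shorter H3K9me3 peaks in TERRA KD and 32.1% in scramble KD. For the whole genome outside the domains the shares were 1.52% and 1.42%. No domain was without a peak in both TERRA KD lists.

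The same rule applied to the TERRA KD lists gave 2722 regions with a median of 10569 bases and a total of 31.9 Mb. Of the 1560 domains, 1393 (89.3%) overlapped one of them, and of the 2722 regions 1378 (50.6%) overlapped a domain. Nearly all the rest met a shorter peak, as 96.8% of the 2722 overlapped some scramble KD replicate 1 peak. The TERRA KD replicate 1 peaks also reached past the domain edges: in the first kb outside the domains they covered 51.7% of the bases, against 10.4% for scramble KD replicate 1, whose peaks by definition end there, 9.18% for scramble KD replicate 2 and 9.22% for TERRA KD replicate 2. The reach past the edges was thus seen in 1 of 2 TERRA KD libraries, the one with the longest peaks of all 4 lists.

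The 64 domains without a TERRA KD replicate 1 peak included some of the longest. Chosen after their values were seen, these are the domain of Zfp808 on chromosome 13, chr2:177504733-177541609 (36877 bases, over Gm14403), chr6:140308075-140333153 (25079 bases) and domains in the bodies of Zfp978, Zfp982 and Zfp980 on chromosome 4. In all, 11 of the 64 lay on chromosome 4 and 11 on X, and 10 overlapped a Zfp gene. Of all 1553 domains on assembled chromosomes, 104 (6.70%) lay on chromosome 4 and 106 (6.83%) on X, and 43 overlapped a Zfp gene. TERRA KD replicate 2 peaks covered 52.0% of their bases against 45.6% for scramble KD replicate 2. The nearest TERRA KD replicate 1 peak lay a median of 10.4 kb away. The reason that they were absent from that 1 list was not tested.

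**Figure D3:**
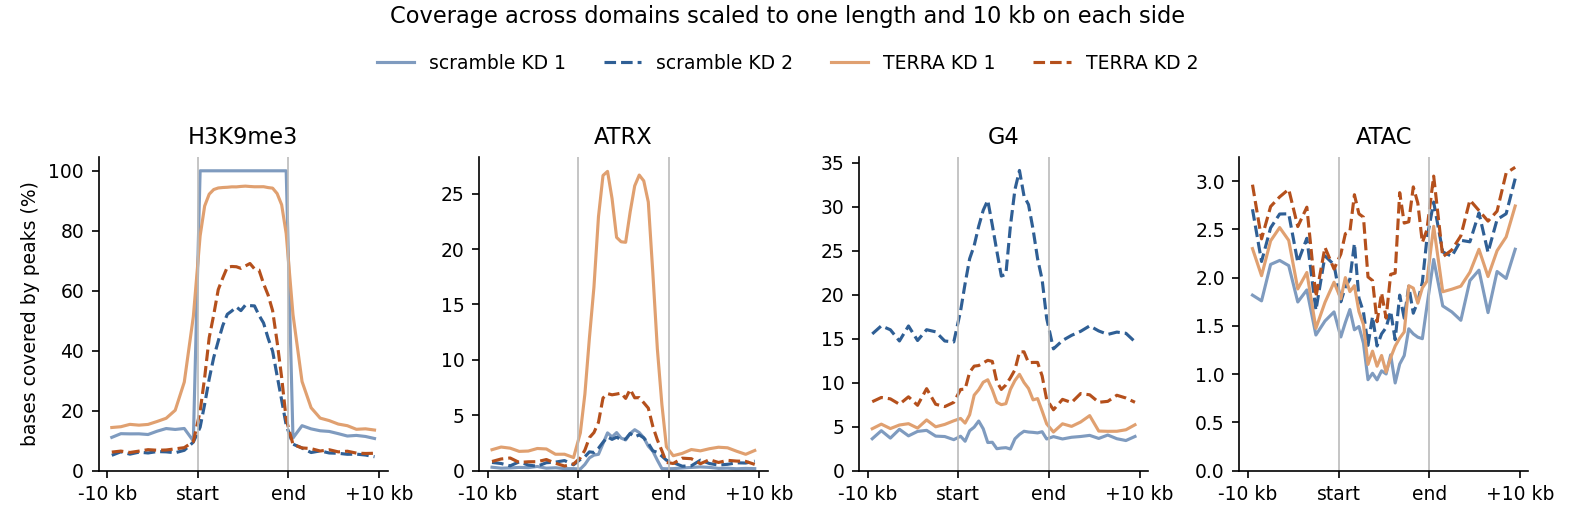
Share of bases covered by peaks of each library across 1553 domains scaled to one length (20 bins between the grey lines) and 10 kb on each side (1-kb bins), for scramble KD (blue) and TERRA KD (orange), replicate 1 solid and replicate 2 dashed. ATRX coverage in TERRA KD replicate 1 reaches 27.0% inside the domain and is 1.27% in the first kb outside, and ATAC coverage is lower in the middle (1.02% to 1.71%) than in the first kb outside (1.92% to 2.57%).

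ATRX peaks were concentrated in the domains in all 4 libraries. They covered 2.10%, 2.31%, 18.3% and 4.84% of domain bases, and 0.123%, 0.288%, 0.748% and 0.478% of the rest of the genome, shorter H3K9me3 peaks included. ATRX and H3K9me3 libraries of the same condition and replicate number had the same input, so their peaks did not come from independent controls. The part of the shared input in the overlap was not tested. The mean log2 ratio of domains to the rest was 3.75 ± 0.73 (SD, n = 4 libraries), positive in 4 of 4, with a two-sided exact sign-flip test at p = 0.13, the smallest p that 4 libraries allow. ATRX was also denser in the domains than in the shorter H3K9me3 peaks, with a mean log2 ratio of 0.81 ± 0.10 (SD, n = 4), positive in 4 of 4 (exact sign-flip p = 0.13). With only peaks of a −log10 p of at least 5 the mean was 0.52, at -0.35 in scramble KD replicate 2 (3 of 4 positive, exact sign-flip p = 0.25), and with domains at least 50% covered by scramble KD replicate 2 it was 0.36. 

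More domains had an ATRX peak in TERRA KD than in scramble KD. The numbers were 380, 438, 1375 and 732 of 1560 (24.4%, 28.1%, 88.1% and 46.9%), where 2.77%, 5.09%, 13.6% and 7.69% of the 10-kb stretches had one. The conditions did not overlap, with a mean difference of 41.3 percentage points and a two-sided exact permutation p of 0.333, the smallest that 2 against 2 libraries allow. The 2 TERRA KD libraries differed from each other by more than the 2 scramble KD libraries did. ATRX lists were also longer in TERRA KD throughout, at 41384 and 21718 peaks against 7321 and 13652 with the scramble gapmer. The ATRX libraries held 6606064, 15506154, 4104486 and 14878010 tags, so TERRA KD replicate 1 had the fewest tags and the longest list. Their inputs held 3366921, 19735093, 3374834 and 28622103 tags. The part of library and input depth in the ATRX differences was not tested. Because the lists differed in length, the share of each list that lay in domains was compared as well. It was 6.16%, 3.83%, 8.16% and 4.89%. The ranges of the conditions overlapped, with a mean log2 ratio of 0.38, of 0.41 and 0.35 in replicates 1 and 2 (exact permutation p = 0.667). This value depended on list length: with the longer list of each replicate number cut to the length of the shorter one by rank, the shares were 6.16%, 3.83%, 23.1% and 5.87% (mean log2 ratio 1.26, exact permutation p = 0.667), and 24.4%, 28.1%, 67.6% and 37.0% of the domains had an ATRX peak. With only peaks of a −log10 p of at least 5, the domains with an ATRX peak were 1.86%, 0.833%, 50.1% and 3.01%, so that the mean difference of 25.2 percentage points came almost wholly from TERRA KD replicate 1.

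Most single domains did not separate the conditions by ATRX, and nearly all of those that did gained it in TERRA KD. An ATRX peak in both TERRA KD and neither scramble KD library was found in 332 domains (21.3%). It was found in 1.7% of the 10-kb stretches and 4.59% of the shorter peaks, which have a median of 2908 bases. The reverse was found in 2 domains (0.128%, against 0.116% of the stretches). In 102 domains (6.54%, against 0.117%) all 4 libraries had an ATRX peak, and in 113 (7.24%, against 75.9%) none did. Of the 332, ordered by ATRX-covered bases, the first were chr14:3891346-3904213 with 2 peaks in TERRA KD replicate 1 and 3 in replicate 2, and chr10:58220766-58229026 with 2 and 1. Neither held a curated gene. Among the first 10, chr4:106389281-106400074 lay in Usp24, a ubiquitin-specific protease, with 3 peaks in each TERRA KD library, chr19:42340722-42352773 in Crtac1, an extracellular matrix protein, with 3 and 4, and chr5:109929590-109940859 held the TSS of Gm15446, with 2 and 2.

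Within the domains ATRX was central. With each domain cut into 20 bins, it covered 2.86%, 2.83%, 20.6% and 6.76% of the middle 2 bins and, in the outermost bin at each end, 0.160%, 0.980%, 2.79% and 0.954%. The TERRA KD replicate 1 profile had 2 summits on either side of the middle, the higher at 27.0%. Word 1 lay at a median of 55.7% of the way from the middle of its domain to the edge, where even placement would give 50%. Its position relative to the summits was not tested.

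**Figure D4:**
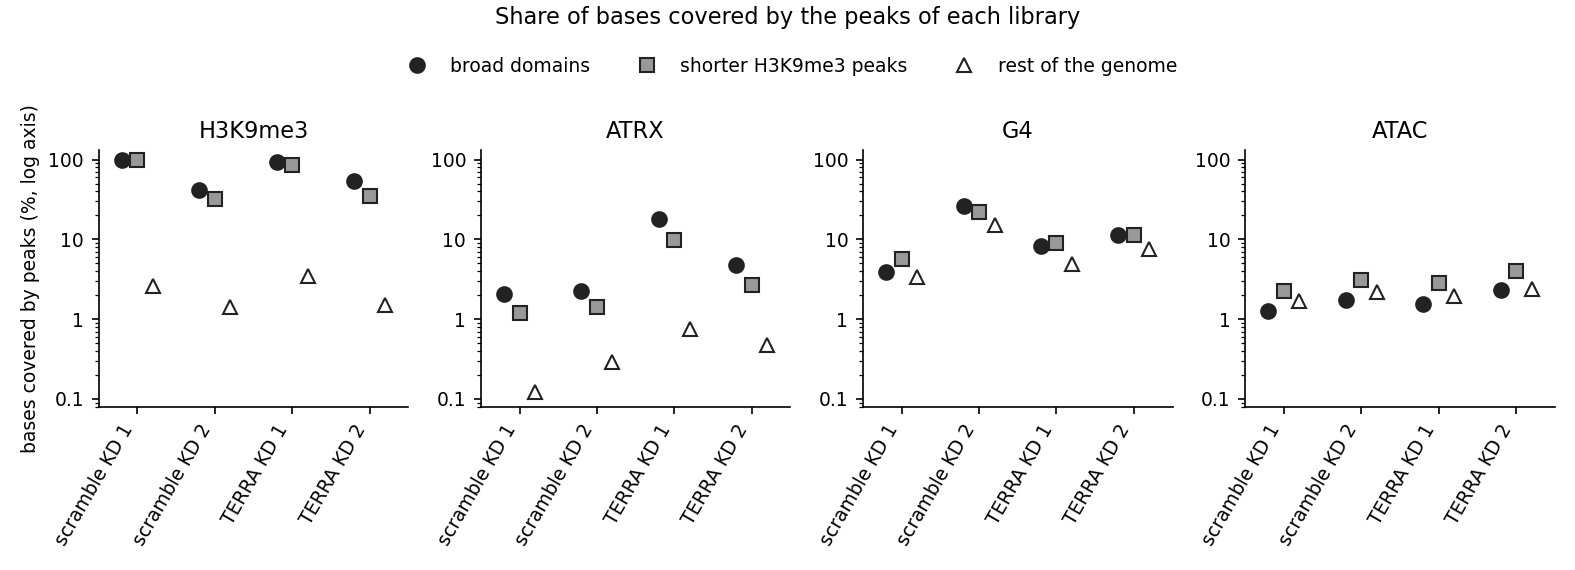
Share of bases covered by the peaks of each library in broad domains (filled circles), in the 14424 shorter H3K9me3 peaks (grey squares) and in the rest of the genome (open triangles), on a log axis, for 1553 domains on assembled chromosomes. For ATRX the circles lie above the squares and the triangles in all 4 libraries, and for ATAC they lie below both.

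G4 peaks gave a mixed picture. They covered 3.92%, 26.1%, 8.37% and 11.3% of domain bases, in the same order as library depth (2961038, 24588605, 5759282 and 13127555 tags), and the part of depth in this was not tested. Domains with a G4 peak were 42.9%, 93.5%, 69.7% and 71.5%, where 39.5%, 68.7%, 45.0% and 53.6% of the 10-kb stretches had one. TERRA KD minus scramble KD came to 4.44 percentage points of bases for replicate 1 but -14.8 for replicate 2 (mean -5.17, exact permutation p = 1), so the 2 replicates went in opposite directions. G4 density in the domains was above that of the rest of the genome in 4 of 4 libraries, with a mean log2 ratio of 0.58 ± 0.27 (SD, n = 4, exact sign-flip p = 0.13). Against the shorter peaks the mean was -0.12 ± 0.33, positive in 1 of 4 (exact sign-flip p = 0.625). A G4 peak was present in all 4 libraries in 520 domains (33.3%, against 23.2% of stretches) and in none in 61 (3.91%, against 21.5%). G4 was gained in both TERRA KD libraries and in neither scramble KD library in 3 domains (0.192%, against 0.511%) and lost in the same sense in 30 (1.92%, against 2.42%).

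ATAC peaks were sparse in the domains. They covered 1.27%, 1.72%, 1.55% and 2.34% of the bases, while the rest of the genome had 1.71%, 2.19%, 1.94% and 2.39%. The mean log2 ratio was -0.28 ± 0.17 (SD, n = 4), negative in 4 of 4, and close to 0 in TERRA KD replicate 2 at -0.02 (exact sign-flip p = 0.13). With a minimum length of 5 kb the mean was 0.02, so this direction was lost when shorter peaks were let in. Against the shorter H3K9me3 peaks the mean was -0.84 ± 0.05, negative in 4 of 4 (exact sign-flip p = 0.13). Domains with an ATAC peak numbered 348, 430, 394 and 576 (22.3%, 27.6%, 25.3% and 36.9%), where 24.5%, 29.2%, 26.4% and 31.0% of the 10-kb stretches had one. The conditions overlapped, with a mean difference of 6.15 percentage points (exact permutation p = 0.667). An ATAC peak in all 4 libraries was found in 258 domains (16.5%, against 19.9%) and in none in 861 (55.2%, against 63.0%). It was gained in both TERRA KD libraries and in neither scramble KD library in 21 (1.35%, against 1.03%), and lost in 10 (0.641%, against 0.552%).

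Of the 258 domains with an ATAC peak in all libraries, the one with the most ATAC-covered bases was chr9:38630912-38644487, with 3, 2, 4 and 3 ATAC peaks. The next were chr2:177228768-177253958, in the dense 1-Mb stretch of chromosome 2 given above, with 4, 4, 4 and 3, and chrX:31157231-31180875 with 5, 5, 6 and 6. None of these 3 overlapped a curated gene. Among the first 10, chr14:68115891-68125030 held the TSS of Nefm, the medium neurofilament protein, and of A230070E04Rik, with 2, 3, 3 and 3 ATAC peaks and H3K9me3 coverage of 23.6% in scramble KD replicate 2, 97.8% in TERRA KD replicate 1 and 29.5% in TERRA KD replicate 2, and chr3:87474800-87484474 lay in Fcrl5, an Fc receptor-like gene.

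Domains with and without word 1 differed in ATRX, ATAC and H3K9me3 coverage, in a split by sequence. It was made after the data were seen. An ATRX peak was present in 27.5%, 34.6%, 98.9% and 60.9% of the 810 domains with the word and in 21.0%, 21.0%, 76.7% and 31.5% of the 743 without it. ATRX-covered bases were higher with the word in 4 of 4 libraries (mean log2 ratio 0.80 ± 0.30, SD, n = 4, exact sign-flip p = 0.13). ATAC went the other way: 8.77%, 13.8%, 12.8% and 24.9% of the domains with the word had an ATAC peak against 37.1%, 42.7%, 38.8% and 50.1% of those without it, with a mean log2 ratio of covered bases of -2.09 ± 0.33, negative in 4 of 4 (exact sign-flip p = 0.13). G4 showed no common direction (mean -0.13 ± 0.39, positive in 2 of 4, exact sign-flip p = 0.75). Of the 43 domains with a Zfp gene, 38 were without the word. The median lengths were 10173 and 9799 bases, and 25.6% and 28.3% overlapped a curated gene.

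**Figure D5:**
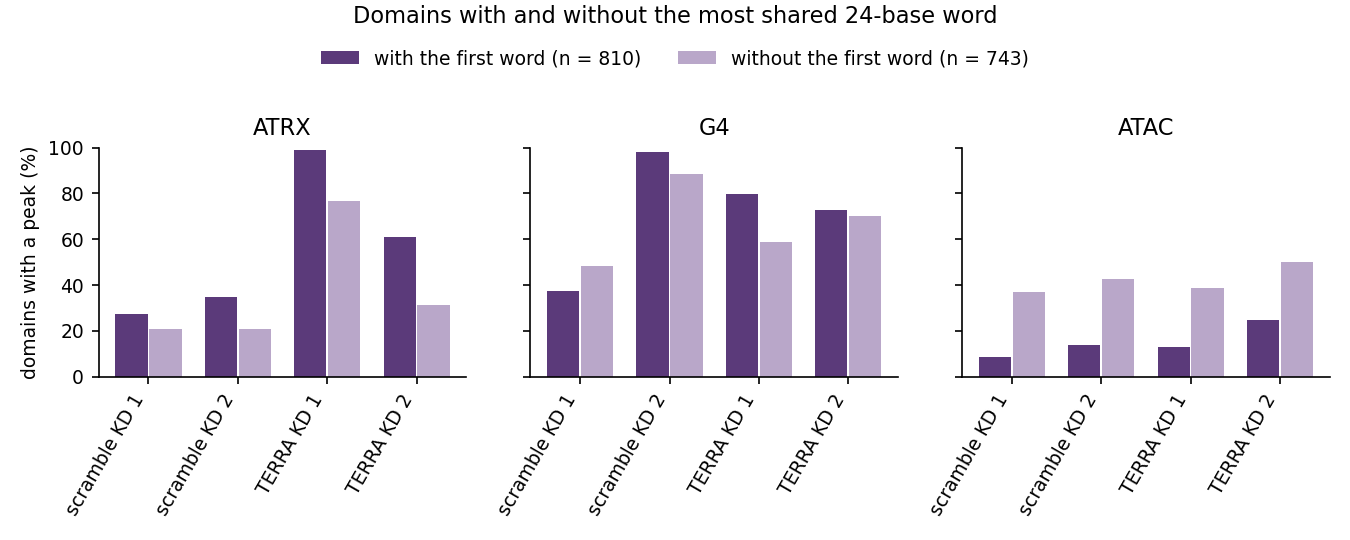
Share of domains with an ATRX, G4 or ATAC peak in each library, for the 810 domains that hold word 1 (dark) and the 743 that do not (light), bars from 0. ATRX bars are higher and ATAC bars lower with the word in all 4 libraries.

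The longest domains show how the lists met in single places. Zfp808 is a zinc finger gene, and its domain chr13:62150472-62188187 had 20 H3K9me3 peaks in scramble KD replicate 2, none in TERRA KD replicate 1 and 18 in replicate 2, and ATRX peaks in TERRA KD replicate 1 alone, 6 of them. The 31731-base domain chr12:20217318-20249048, without a curated gene, had 1, 1, 7 and 3 ATRX peaks and H3K9me3 over 79.6% of it in scramble KD replicate 2, over all of it in TERRA KD replicate 1 and over 89.6% in TERRA KD replicate 2. It had ATAC peaks in all 4 libraries. By contrast chr8:116889392-116917333, in Cmc2, had no ATAC peak in any library, with 0, 1, 5 and 6 ATRX peaks. The domain chr6:37872020-37899457 lay in Trim24, a transcriptional coregulator, and had 6 ATRX peaks in TERRA KD replicate 1 and none in the other 3 libraries. On chr17:6733502-6760516, over parts of Sytl3 and Ezr, which codes for the membrane linker ezrin, ATRX gave 3, 0, 7 and 0 peaks, all in replicate 1 lists. On chr17:27339746-27365428, which held the TSS of Mir7217 and Mir7218, it gave 1, 1, 4 and 8. The other 4 of the 10 longest were chr2:177504733-177541609 over Gm14403 and 3 without a curated gene, chr10:130544638-130573810, chr2:177228768-177253958 and chr6:81845553-81870676. Among the 10 longest, replicate 1 had more ATRX peaks in TERRA KD in all 10, while replicate 2 had more in 3, fewer in 4 and as many in 3.

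Among the 10 domains with the most protein-coding genes were also chr4:147328159-147341990 (Zfp978 and Zfp988), chr4:147174596-147187415 (Zfp978 and Zfp991), chr7:24576528-24587632 (Zfp575 and Ethe1) and chr7:127234368-127243203 (Zfp553 and Zfp771). The domain of Zfp575 held the TSS of Ethe1, a mitochondrial sulfur dioxygenase, with 2 ATAC peaks in each library, 0, 0, 2 and 1 ATRX peaks and H3K9me3 coverage of 24.3% in scramble KD replicate 2. Others paired Glb1 with Tmppe on chromosome 9, Cox16 with Gm20498 on chromosome 12, Hibch with 1700019D03Rik on chromosome 1, and 3 Gm models overlapped a second domain on chromosome 18. At the domain of Hibch, an enzyme of valine breakdown, none of the ATRX, G4 and ATAC lists had a peak.

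The share of domains with an ATRX peak rose with length. An ATRX peak was present in 19.6%, 23.9%, 83.3% and 41.5% of the 774 domains under 10 kb and in 56.3%, 59.4%, all and 62.5% of the 32 of at least 20 kb. Shares of bases changed less, from 1.94%, 2.15%, 17.5% and 4.81% to 3.81%, 4.08%, 21.5% and 6.51%. ATAC-covered bases went from 1.32%, 1.85%, 1.59% and 2.45% to 2.16%, 2.52%, 2.10% and 3.05%. Shares of bases did not rise steadily. In the 333 domains of 12 to 20 kb they were close to those under 10 kb. ATRX covered 2.22%, 2.21%, 18.2% and 4.67% there, and ATAC 1.21%, 1.69%, 1.65% and 2.34%. A region with more bases has more room for a peak, and the values are given side by side without a test.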

How the data were processed

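H3K9me3, ATRX and G4 ChIP-seq and ATAC-seq were available as 1 peak list per library, 16 lists in all, with 2 libraries per condition; 6 inputs had no list. Per the labels and the study's methods, the authors trimmed reads (Trim Galore 0.5.0), aligned them to mm10 (Bowtie2 2.3.4.1), removed duplicates (SAMtools 1.9) and called peaks in each library at p = 0.01. The file headers give MACS 1.4.3 with an input for H3K9me3 and ATRX, 1.4.2 with an input for G4, and 2.2.7.1 without one for ATAC. As deposited, each ChIP peak carries a score that the authors' peak caller made from its p-value, and each ATAC peak the −log10 p itself; the tag count and fold enrichment used here are those of the deposited H3K9me3 lists, relative to local background and not scaled between libraries. H3K9me3 and ATRX libraries of the same condition and replicate number had the same input, and G4 replicates shared 1 input per condition. The headers give 2961038 to 24588605 tags per library, and calls depend on this depth.

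Overlaps were counted at 1 base (Python 3.11.15, numpy 2.4.6, pandas 2.3.3). Curated genes and sequence came from RefSeq GRCm38.p6. Conditions were compared by two-sided exact permutation of 2 against 2 libraries, and domains with other regions by two-sided exact sign flips over 4 libraries. Neither test can pass 0.05. The exact binomial interval of the gene share came from scipy 1.17.1. Counting scripts were tested on simulated data. Named domains were the 10 longest, the 10 with most coding genes, up to 10 with ATRX gained or with ATAC in all libraries, any that lost H3K9me3 in both TERRA KD lists, list genes with a TSS in a domain, and the 10 leading symbol stems. Alternatives changed the length minimum, the overlap with replicate 2, the peak threshold, the chromosomes, the merging of neighbours, the libraries and the number of peaks. The domains and gene lists were chosen with earlier results of these data known.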

Additional observations from a re-analysis of the deposited data

How the results depend on the processing

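Of 129 alternative values, 4 reversed and 6 others moved beyond the bounds set for a value or count without a test. The other 119 kept their direction or stayed within those bounds. They include the values with a replicate block, which repeat the main values by construction. The size of the others could change, as for the ATRX list share (0.25 to 1.26 on the log2 scale), the ATRX domains (18.8 to 63.8 points) and ATRX against shorter peaks (0.36 to 1.06). No test could pass 0.05 with so few libraries, so directions and sizes alone were compared. With a minimum of 5 kb there were 4135 domains and the ATAC log2 ratio to the rest of the genome became 0.0166. With 12 kb there were 365 domains, of which 33.8% held a gene. With at least 50% of a domain covered by scramble KD replicate 2 there were 435. With predicted RefSeq genes, added after the data were seen, 41.9% held a gene. Leaving out each replicate number in turn gave -14.8 to 4.44 percentage points for the G4 bases covered between conditions, -0.34 to 0.10 for the G4 log2 ratio to shorter peaks, -0.29 to 0.0322 for G4 with against without word 1, and 47.8% to 92.1% for the mean H3K9me3 share of bases covered. The labels do not say that replicate numbers pair libraries, and deviations of same-numbered libraries over the 1560 domains correlated at 0.07 (ATRX), 0.31 (G4) and 0.20 (ATAC) in covered share. With a replicate block, the exact sign-flip p was 0.5 for the ATRX list share (0.38), the ATRX domains (41.3 points) and the ATAC domains (6.15 points), and 1 for the G4 bases (-5.17 points), where 2 pairs allow no p under 0.5. Depth differed between libraries of an assay, and peak lists carry no reads, so coverage could not be compared at equal depth.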
